A study of Mus musculus with 6 samples.

Results

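Endoplasmic reticulum (ER)-associated degradation, or ERAD, was examined through 10 genes in islets of Langerhans, the endocrine part of the pancreas, from mice labelled as Sec16b knockouts. The members were taken by gene symbol: Sel1l and Syvn1 of the Sel1l-Hrd1 complex, the derlins Derl1, Derl2 and Derl3, the lectins Edem1, Edem2 and Edem3, and Herpud1 and Os9. All 10 were found among the 18437 genes of the deposited table, and all 10 were among the 16042 genes that passed a filter on low values. RNA sequencing covered 3 libraries from Sec16b-/- males (knockout) and 3 from Sec16b+/+ males (wild type), all aged 30 weeks. The labels name no other allele, strain or treatment and do not say whether each library was a separate animal, so p-values measure only the spread between these libraries. Sec16b encodes a protein of ER exit sites, where cargo leaves the ER in COPII-coated vesicles.

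ERAD removes proteins that fail to fold in the ER. Edem lectins trim the mannose branches of a failed glycoprotein, Os9 reads the trimmed glycan, and Sel1l passes the client to the ubiquitin ligase Hrd1, encoded by Syvn1. Derlins help form the passage through the membrane, Herpud1 joins Hrd1 with its partners, and the ATPase p97, encoded by Vcp, pulls the ubiquitinated client into the cytosol for the proteasome. Beta cells make large amounts of proinsulin, a known client of this route, and several ERAD genes are induced by the unfolded protein response (UPR), the signalling that raises ER capacity when folding fails.

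Among the 10 genes, Derl3 stood apart: it was lower in every knockout library than in any wild type library, by 1.68-fold on average. The other 9 genes overlapped between the genotypes, with log2 fold changes from −0.23 for Sel1l to 0.21 for Edem1. None of the 10 passed the test over all genes, and neither did any other gene (0 of 16042, or 0%, at an adjusted p under 0.05 by limma, where the adjusted p of the 10 members lay between 0.993 and 0.994). At an unadjusted p under 0.05, limma found 494 genes (3.08%), 218 of them lower in knockout (1.36%), and Derl3 was the only member among them. Without wild type replicate 3 no member was among them. The quasi-likelihood test of edgeR called 0 genes and had 509 at an unadjusted p under 0.05. Knockout and wild type values did not overlap in 1 of the 10 members, or 10%, against 9.08% of all genes tested. The count is thus close to that of the whole table.

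Promoter windows are shown for the 3 members whose sequence just before the annotated start holds an element of the UPR. The ER stress response element, ERSE, is known to bind Atf6 or Xbp1 together with the factor NF-Y, and was searched as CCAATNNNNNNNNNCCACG. ERSE-II, first described in the Herpud1 promoter, was searched as ATTGGNCCACG. UPRE, a site of Xbp1 and Atf6, was searched as TGACGTG, and the Atf4 and Chop element CARE as TGATGNAAT. Both strands were searched in RefSeq windows of GRCm38.p6 running from 250 bases before to 50 bases after the start. Windows were found for 9 of the 10 members, all but Derl1. Each sequence runs 5′ to 3′ on the strand of its gene, with the element in capitals. All 3 genes lie on the plus strand, Derl3 at chr10:75893148-75893447, Syvn1 at chr19:6046326-6046625 and Herpud1 at chr8:94386179-94386478.
Derl3: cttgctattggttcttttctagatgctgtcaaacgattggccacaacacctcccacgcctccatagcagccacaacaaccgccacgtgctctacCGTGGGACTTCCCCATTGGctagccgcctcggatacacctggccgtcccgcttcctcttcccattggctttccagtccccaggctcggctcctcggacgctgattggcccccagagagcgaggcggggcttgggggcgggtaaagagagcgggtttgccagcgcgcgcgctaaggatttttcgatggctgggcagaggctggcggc
Syvn1: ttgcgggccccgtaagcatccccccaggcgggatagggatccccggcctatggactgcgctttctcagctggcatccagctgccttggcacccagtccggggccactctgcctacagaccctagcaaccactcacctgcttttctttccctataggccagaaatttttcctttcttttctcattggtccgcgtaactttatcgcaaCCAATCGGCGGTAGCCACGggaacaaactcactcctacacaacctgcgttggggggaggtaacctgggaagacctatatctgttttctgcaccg
Herpud1: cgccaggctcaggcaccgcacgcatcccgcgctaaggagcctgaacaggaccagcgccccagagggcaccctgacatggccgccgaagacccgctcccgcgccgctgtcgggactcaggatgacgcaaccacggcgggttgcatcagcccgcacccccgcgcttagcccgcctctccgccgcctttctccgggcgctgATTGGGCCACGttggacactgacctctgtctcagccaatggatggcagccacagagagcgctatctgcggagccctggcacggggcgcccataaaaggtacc
In Derl3 the ERSE lies on the opposite strand, 156 to 138 bases before the start, and reads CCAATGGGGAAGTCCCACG there. In Syvn1 the ERSE lies on the gene's own strand, 44 to 26 bases before the start. In Herpud1 the ERSE-II lies 52 to 42 bases before the start. An ERSE was present in 39 of 32851 windows (0.119%) and an ERSE-II in 12 (0.0365%). Counted by gene, 20 of the 11712 tested genes with a window had an ERSE (0.171%) and 8 an ERSE-II (0.0683%). UPRE was present in 2.01% of windows and CARE in 0.965%, and neither was found in a member's window. None of these 4 elements was found in the windows of Sel1l, Derl2, Edem1, Edem2, Edem3 or Os9, which says nothing of elements outside the window or spelled otherwise.

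Sec16b was checked first, since it is the gene whose genotype the labels give, without describing the allele. Its normalized read count was 553, 433 and 750 in the knockout libraries, against 1655, 773 and 1786 in the wild type libraries. The groups did not overlap, but transcript was still counted in all 3 knockout libraries. The log2 fold change was −1.22 (SE 0.35, limma adjusted p = 0.993), and a two-sided exact permutation test over the libraries returned p = 0.1, below which a comparison of 3 with 3 cannot go. Reads recovered from the table ranged from 22071895 to 26806787 per library. Genes of acinar cells, the enzyme-secreting cells around the islets that also have a large ER, were represented by 32 of 33 listed markers. They took 17.4%, 8.51% and 0.794% of the summed values in knockout replicates 1, 2 and 3, against 5.80%, 1.29% and 3.58% in wild type replicates 1, 2 and 3. The 13 beta cell markers, all in the table, took between 9.42% and 14.9% in knockout and between 11.6% and 15.2% in wild type libraries. In knockout replicate 1 the acinar share was thus above the beta cell share of 9.42%. The 8 of 12 lymphocyte and plasma cell markers in the table took between 0.0342% and 0.565% in knockout and between 0.00115% and 0.107% in wild type libraries. The mean log2 level of the 10 endothelial markers was 9.59 to 9.90 in knockout and 9.25 to 9.51 in wild type libraries, without overlap, while their share of the values overlapped. These are bulk tissue values, in which fewer cells of a type and less RNA per cell cannot be told apart.

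Derl3 encodes the derlin most tied to secretory tissues and to UPR induction. Its normalized count was 983, 555 and 982 in knockout replicates 1, 2 and 3, against 1231, 1223 and 1698 in wild type replicates 1, 2 and 3. All knockout values lay below all wild type values, with knockout replicate 2 the lowest and wild type replicate 3 the highest. The means were 839.7 ± 247 in knockout and 1384 ± 272 in wild type libraries (SD, n = 3 each). Counting error was smaller than this gap: the exact 95% Poisson interval reached up to 1053 in the highest knockout library, against 1156 at its lower end in the lowest wild type library. The log2 fold change on the log2(value + 1) scale was −0.75 (SE 0.25, 95% interval −1.35 to −0.15, limma adjusted p = 0.993). A two-sided exact permutation test of Derl3 alone gave p = 0.1, again the smallest possible.

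The size of the Derl3 difference depended in part on single libraries. The log2 fold change was −0.48 without knockout replicate 2, −0.60 without wild type replicate 3 and −0.89 without either knockout replicate 1 or knockout replicate 3. With the acinar level as a covariate the log2 fold change was −0.72. Plasma cells are rich in ERAD proteins, and the lymphocyte and plasma cell markers were at their highest share in knockout replicate 1. The 8 alpha cell markers took 1.21%, 2.86% and 1.11% of the values in knockout replicates 1, 2 and 3. In wild type replicates 1, 2 and 3 they took 0.936%, 1.64% and 0.745%. The alpha share was thus highest in the library of lowest Derl3 and lowest in the library of highest Derl3. The libraries between did not keep this order. Wild type replicate 2 (1.64%, Derl3 1223) was above knockout replicates 1 (1.21%, Derl3 983) and 3 (1.11%, Derl3 982) in both. The 6 delta and PP (pancreatic polypeptide) cell markers took 0.169% to 0.290% in knockout and 0.176% to 0.201% in wild type libraries. The part of acinar, alpha, delta, PP, lymphocyte, plasma cell or endothelial RNA in the result was not tested.

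**Figure D1:**
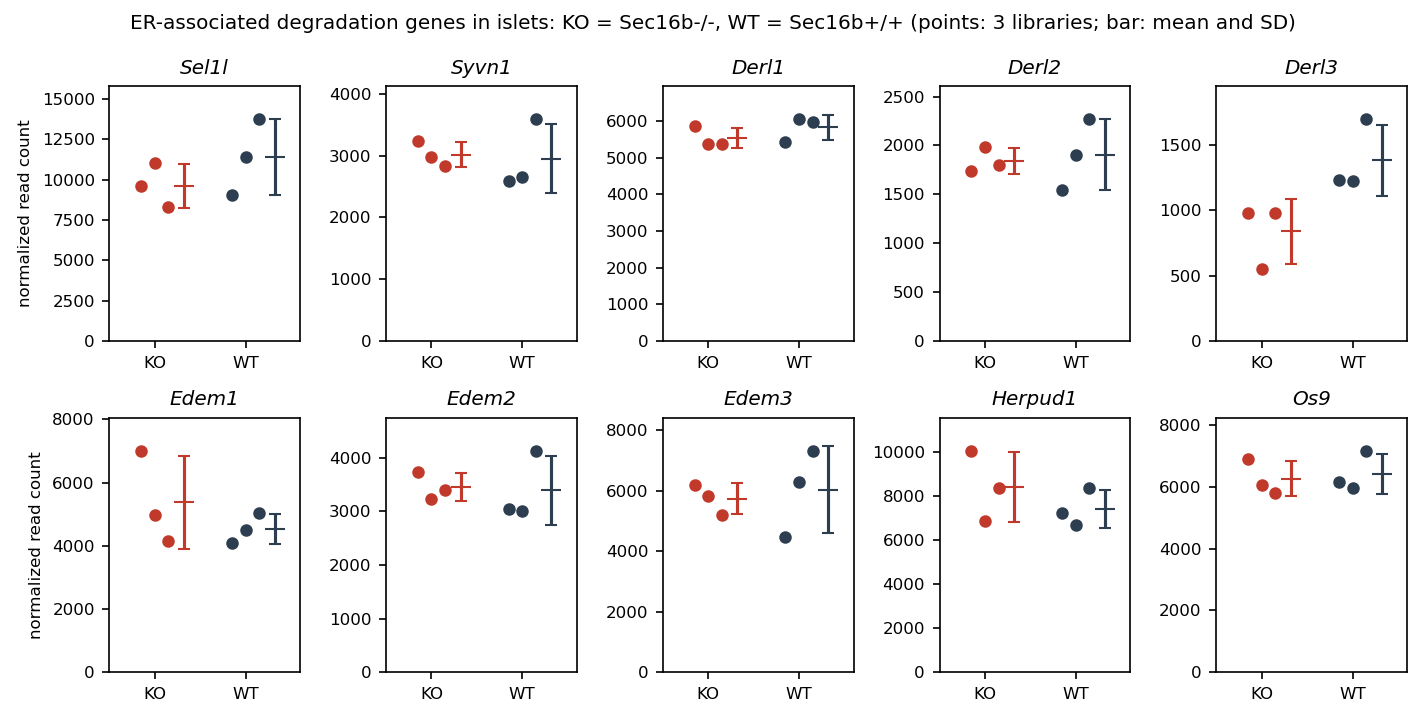
Normalized read counts (y axis, from 0) of the 10 ERAD genes in islets of Sec16b-/- mice (KO, red) and Sec16b+/+ mice (WT, dark). Each point is 1 library, and the bar beside the points is the mean with its SD. The Derl3 knockout points, at 555 to 983, all lie below the wild type points, at 1223 to 1698, while the other 9 genes overlap.

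Derl1 and Derl2, the widely expressed derlins, did not share this difference. Derl1 had 5864, 5384 and 5375 normalized counts in the knockout libraries, against 5441, 6051 and 5989 in the wild type libraries. Its 6 values spanned a ratio of only 1.13 from lowest to highest, the narrowest among the members, and the groups overlapped. Its log2 fold change was −0.07 (SE 0.09, 95% interval −0.29 to 0.14). Derl2 had 1739, 1989 and 1796 in the knockout libraries, against 1546, 1899.8 and 2268.5 in the wild type libraries, where the wild type range enclosed the knockout range. Its log2 fold change was −0.03 (SE 0.15, 95% interval −0.39 to 0.32).

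As a share, Derl3 took 11.4%, 6.99% and 12.0% of the reads on the 3 derlin genes in knockout replicates 1, 2 and 3, against 15.0%, 13.3% and 17.1% in wild type replicates 1, 2 and 3. This share does not depend on how the libraries were scaled, but it holds the same reads as the Derl3 level and is no separate evidence. Every exact 95% Clopper-Pearson interval in knockout ended at or below 12.8%, and the lowest wild type interval ran from 12.65% to 14.0%, so those of knockout replicate 3 and wild type replicate 2 overlapped slightly. Such intervals cover counting error only. Per read of Derl1 there were 0.151 ± 0.042 reads of Derl3 in knockout and 0.237 ± 0.042 in wild type libraries (SD, n = 3 each). Derl1 took 67.4% ± 1.27 of the derlin reads in knockout and 64.1% ± 3.43 in wild type libraries, and the shares of Derl1 and Derl2 overlapped between the genotypes.

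**Figure D2:**
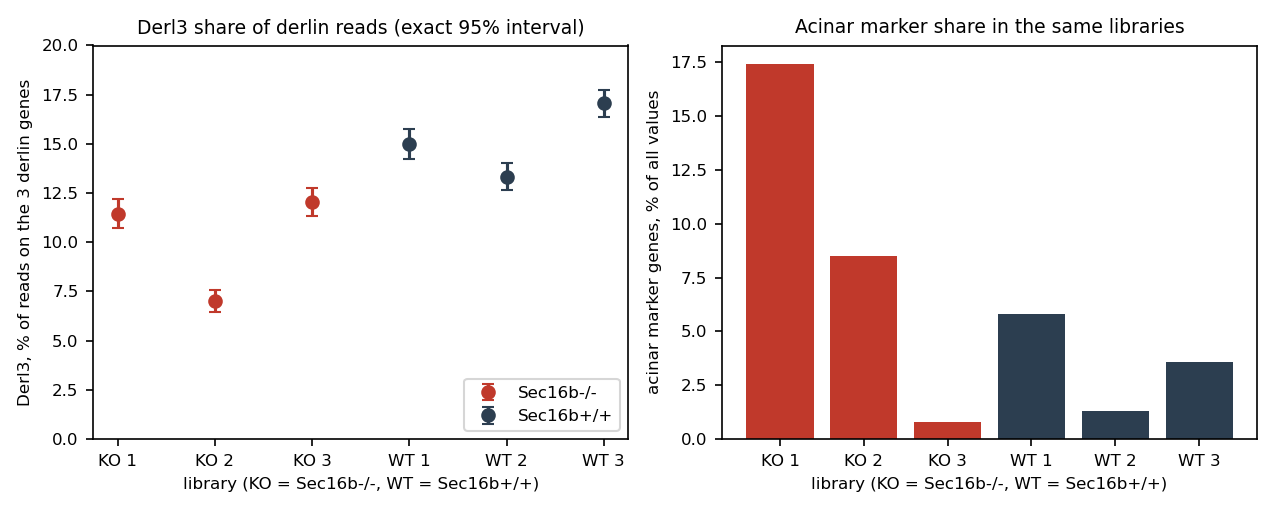
Left, Derl3 as a percentage of the reads on Derl1, Derl2 and Derl3 in each library, with exact 95% binomial intervals; right, the share of all values on acinar marker genes in the same libraries (KO red, WT dark). Derl3 took 6.99% to 12.0% in knockout and 13.3% to 17.1% in wild type libraries, while the acinar share ran from 0.794% to 17.4% within knockout alone.

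The Sel1l-Hrd1 complex, the core of the pathway, did not differ beyond the spread of the libraries. Sel1l, the adaptor that brings clients to the ligase, had 9580.3, 11005 and 8298 normalized counts in the knockout libraries, against 9045, 11422 and 13748 in the wild type libraries. Wild type replicate 3 was the highest library and knockout replicate 3 the lowest, and the groups overlapped. The log2 fold change was −0.23 (SE 0.18, 95% interval −0.67 to 0.20). Without wild type replicate 3 it was −0.09, and without wild type replicate 1 it was −0.39 and the groups no longer overlapped. Syvn1, the ubiquitin ligase itself, had 3240.5, 2979 and 2838 in the knockout libraries, against 2596, 2661 and 3590.0 in the wild type libraries. The knockout values fell between those of the wild type libraries, and the log2 fold change was 0.05 (SE 0.14, 95% interval −0.29 to 0.39). Its window holds an ERSE, as does that of Derl3, and whether either site is used was not tested. Per read of Syvn1 there were 2.96, 3.69 and 2.92 reads of Sel1l in knockout replicates 1, 2 and 3, against 3.48, 4.29 and 3.83 in wild type replicates 1, 2 and 3, and these ratios overlapped.

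The Edem lectins, which trim mannose from failed glycoproteins and so mark them for removal, moved in different directions in different libraries. Edem1 had 7011, 4984 and 4151 normalized counts in the knockout libraries, against 4090.0, 4512 and 5037 in the wild type libraries. Knockout replicate 1 was far above the other 5 libraries, and the rest overlapped. The log2 fold change was 0.21 (SE 0.20, 95% interval −0.25 to 0.68), and without knockout replicate 1 it was 0.0058. That library also had the highest acinar share, and with the acinar level as a covariate the log2 fold change was 0.12. Edem2 had 3730.1, 3222.5 and 3399 in the knockout libraries, against 3051, 2999.8 and 4129.9 in the wild type libraries, with a log2 fold change of 0.04 (SE 0.14, 95% interval −0.30 to 0.38). Edem3 had 6186.5, 5813 and 5184 in the knockout libraries, against 4479.9, 6281 and 7312 in the wild type libraries. Its wild type range enclosed the knockout range, and its log2 fold change was −0.05 (SE 0.19, 95% interval −0.49 to 0.40). Edem3 is the member that lies on chromosome 1, the chromosome of Sec16b.

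Among the reads on the 3 Edem genes, Edem1 took 36.5% ± 4.49 in knockout and 32.8% ± 2.32 in wild type libraries (SD, n = 3 each). Edem3 took 39.6% ± 2.65 in knockout and 42.8% ± 3.74 in wild type libraries, and Edem2 took 23.9% ± 2.46 in knockout and 24.4% ± 2.34 in wild type libraries. All 3 shares overlapped between the genotypes.

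Herpud1 and Os9 complete the list. Herpud1, the UPR-induced partner of Hrd1, had 10048, 6851 and 8343 normalized counts in the knockout libraries, against 7242, 6668 and 8346 in the wild type libraries. Knockout replicate 1 was again the highest library, and the groups overlapped. The log2 fold change was 0.17 (SE 0.16, 95% interval −0.22 to 0.56), and it was 0.03 without knockout replicate 1. Os9, the lectin that reads trimmed glycans, had 6888, 6063 and 5801 in the knockout libraries, against 6136, 5968 and 7159 in the wild type libraries. Its log2 fold change was −0.04 (SE 0.12, 95% interval −0.31 to 0.24), and its 6 values stayed within a ratio of 1.23.

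The extreme libraries of the members did not follow the genotype. Wild type replicate 3 held the highest value of 7 of the 10 genes, and knockout replicate 1 that of Edem1 and Herpud1. Wild type replicate 1 held the lowest value of 4 genes, knockout replicate 3 that of 3, wild type replicate 2 that of 2 and knockout replicate 2 that of Derl3. The mean over the 10 genes, each centred on its own log2 mean, was 0.11, −0.11 and −0.10 in knockout replicates 1, 2 and 3, against −0.14, −0.02 and 0.27 in wild type replicates 1, 2 and 3. By this mean wild type replicate 1 was the lowest and wild type replicate 3 the highest of the 6 libraries, with all knockout libraries between them. The median log2 fold change over the 10 genes was −0.04, and it was 0.10 without wild type replicate 3 and −0.09 without wild type replicate 1. Over all genes tested the median was −0.0030. Single libraries also decided whether the groups overlapped: without wild type replicate 1 the knockout values of Sel1l, Derl1 and Edem3 lay below those of wild type, as did those of Derl1 without knockout replicate 1. Without wild type replicate 3 the knockout values of Syvn1 and Edem2 lay above those of wild type. With a library left out such separation is easier to reach than with all 6. Its share over all genes was not computed, so these cases cannot be called more frequent than elsewhere.

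**Figure D3:**
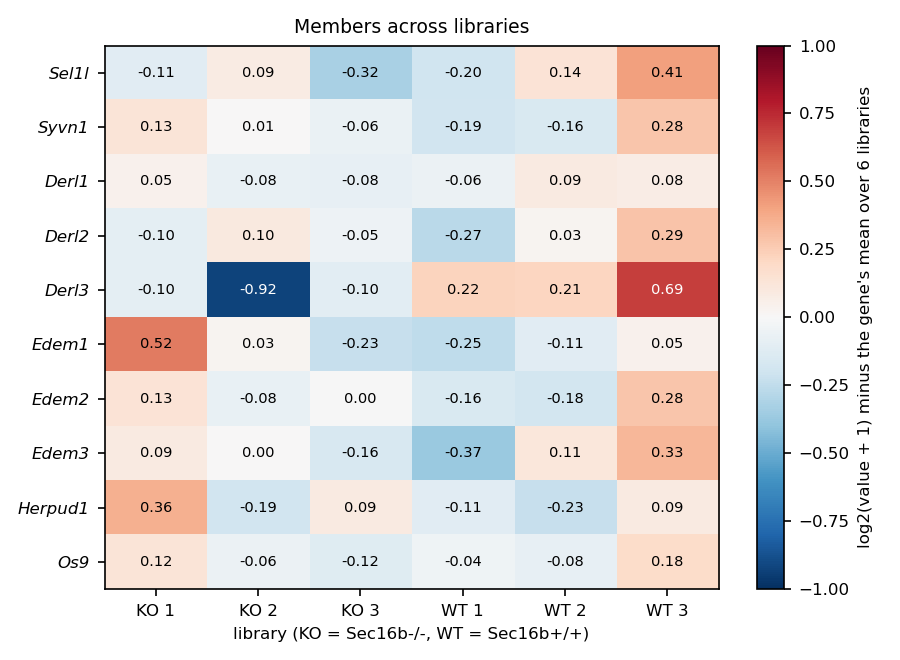
Each cell gives the log2(value + 1) of an ERAD gene in a library minus that gene's mean over the 6 libraries, knockout libraries left and wild type libraries right. The strongest cells belong to Derl3, at −0.92 in knockout replicate 2 and 0.69 in wild type replicate 3, and the column of wild type replicate 3 is positive for all 10 genes.

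Genes outside ERAD with the most similar course over the 6 libraries were ranked by the root mean square difference between centred log2 profiles, among 11057 tested genes with a mean value of at least 100. Among the nearest to the mean of the 10 members were Trabd, Arfgap3 (a GTPase-activating protein of Golgi coats), Spop (a ubiquitin ligase adaptor) and Sec23b (a COPII coat subunit). Their differences lay between 0.041 and 0.048, against a median of 0.22 over the ranked genes. Nearest to Derl3 alone were Cyp4f39 (0.213), Serpina7 (0.214) and Kbtbd8 (0.215), against a median of 0.51. The root mean square of Derl3's own centred profile was 0.49. The nearest genes fall below the median by the ranking itself. Cyp4f39 had 147, 88.1 and 176 normalized counts in the knockout libraries, against 256, 229.5 and 226 in the wild type libraries. Kbtbd8 had 132.5, 99.3 and 128.6 in the knockout libraries, against 172.4, 174.3 and 183.8 in the wild type libraries. Serpina7 overlapped between the genotypes, with 544.8, 269.8 and 394.7 in the knockout libraries, against 530.3, 466.7 and 608.5 in the wild type libraries.

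Levels of different genes were set side by side per kilobase of exon, with merged exon lengths from GENCODE M21. Herpud1 had the highest level, at 3606 normalized reads per kb in knockout and 3180 in wild type libraries on average. Os9 followed with 2378 in knockout and 2442 in wild type, Derl1 with 1665 in knockout and 1751 in wild type, and Sel1l with 1125 in knockout and 1333 in wild type. Among these 4 genes no neighbours in the order overlapped over the 6 libraries, although the gap between Derl1 (lowest 1615) and Sel1l (highest 1607) was small. Edem2, Edem3, Edem1, Derl3 and Syvn1 formed a middle group in which neighbours overlapped, and the ranges of Sel1l and Edem2 overlapped too. Derl3 ranked eighth in wild type, at 694 per kb, and ninth in knockout, at 421 per kb, where Syvn1 stood at 621 in knockout and 607 in wild type. Derl2 was the lowest, at 229 per kb in knockout and 237 in wild type libraries. The lengths assume that all annotated exons are used.

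**Figure D4:**
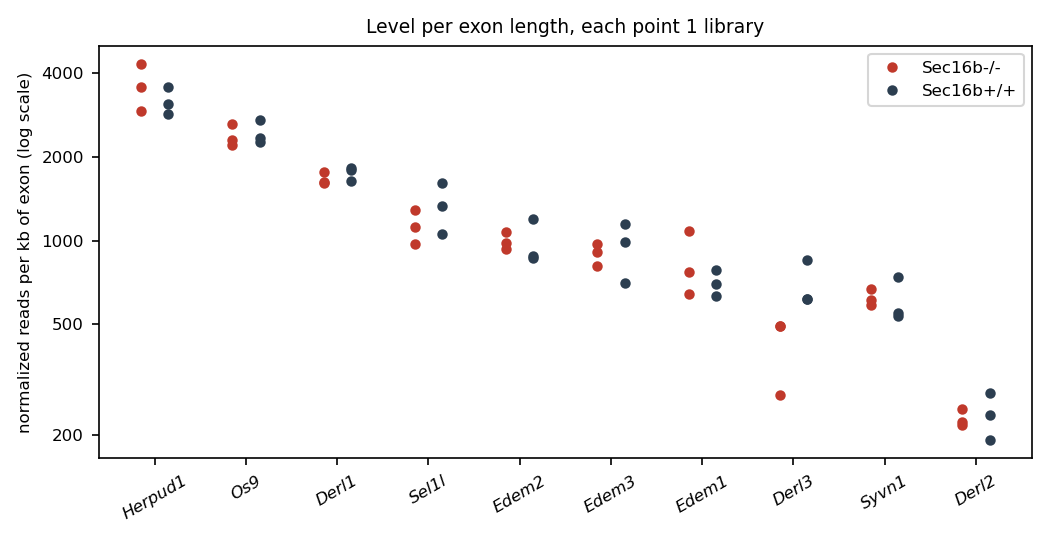
Normalized reads per kb of merged exon (y axis, log scale) for each ERAD gene, ordered by the wild type mean; each point is 1 library, knockout red and left, wild type dark and right. Herpud1 is highest (3606 in knockout, 3180 in wild type) and Derl2 lowest (229 in knockout, 237 in wild type); the 2 upper Derl3 knockout points coincide.

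The rest of the pathway was read from a wider list of 80 ERAD genes. Of these, 65 were lower and 15 higher in knockout libraries, with a median log2 fold change of −0.08, where over all genes 50.6% were lower. Among the 7303 genes with a mean value of at least 500, 61.7% were lower, with a median of −0.04. No gene of the list passed limma's test. Knockout lay below wild type without overlap in 12 of the 80 genes, where 5.22% of all genes lay below. So did 574 of the 7303 genes with a mean of at least 500. It lay above wild type in 0 of the 80, where 618 of the 16042 genes tested and 155 of the 7303 lay above.

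Chaperones and reductases of the ER lumen, which hold clients soluble and bring them to the ligase, were lower in 12 of 12 genes, with a median log2 fold change of −0.25. Calr, the lectin chaperone calreticulin, had 27093, 22352 and 24028 normalized counts in the knockout libraries, against 34743, 37957 and 39401 in the wild type libraries. Its log2 fold change was −0.61 (SE 0.15, limma adjusted p = 0.993). Hsp90b1, the ER member of the Hsp90 family, averaged 39808 ± 3929 in knockout and 59699 ± 4901 in wild type libraries (SD, n = 3 each), a log2 fold change of −0.59 (SE 0.18). Sdf2l1, a cochaperone of the Hspa5 system, had a log2 fold change of −0.42 (SE 0.11). None of these 3 genes overlapped between the genotypes. By the Wald test of DESeq2 on recovered reads, Calr (adjusted p = 0.00711) and Hsp90b1 (adjusted p = 0.0205) passed among 12 genes called (0.114% of those with an adjusted p), while Derl3 did not (adjusted p = 0.778).

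The other roles had medians nearer to 0. Of 16 genes for extraction by p97 and its cofactors, 15 were lower, with a median of −0.13. Knockout lay below wild type without overlap in 4 of the 16 and in 3 of the 12 lumenal genes (25% each). Of all genes tested 5.22% lay below, as did 574 of the 7303 genes with a mean of at least 500. Vcp, p97 itself, had 7179, 6577 and 6135 in the knockout libraries, against 7645, 7847 and 7817 in the wild type libraries, a log2 fold change of −0.23 (SE 0.09), and did not overlap. Selenok, a selenoprotein that binds p97 cofactors, had a log2 fold change of −0.23 (SE 0.10). Among 20 other ER ubiquitin ligases and partners, 17 were lower, with a median of −0.08, and Aup1 and Tmem259 on the higher side both had 0.13. Of 16 deubiquitinases and proteasome shuttles 13 were lower, with Ubqln2, a ubiquitin-binding shuttle, at −0.27 (SE 0.16). Of 10 other lectin and glycan-trimming genes 6 were lower, and Uggt2 and the deglycosylase Ngly1 had 0.23 (SE 0.18) and 0.18 (SE 0.13). Of 6 ubiquitin-conjugating enzymes 4 were higher, with Ube2j1, the partner enzyme of Hrd1, at 0.12 (SE 0.11).

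**Figure D5:**
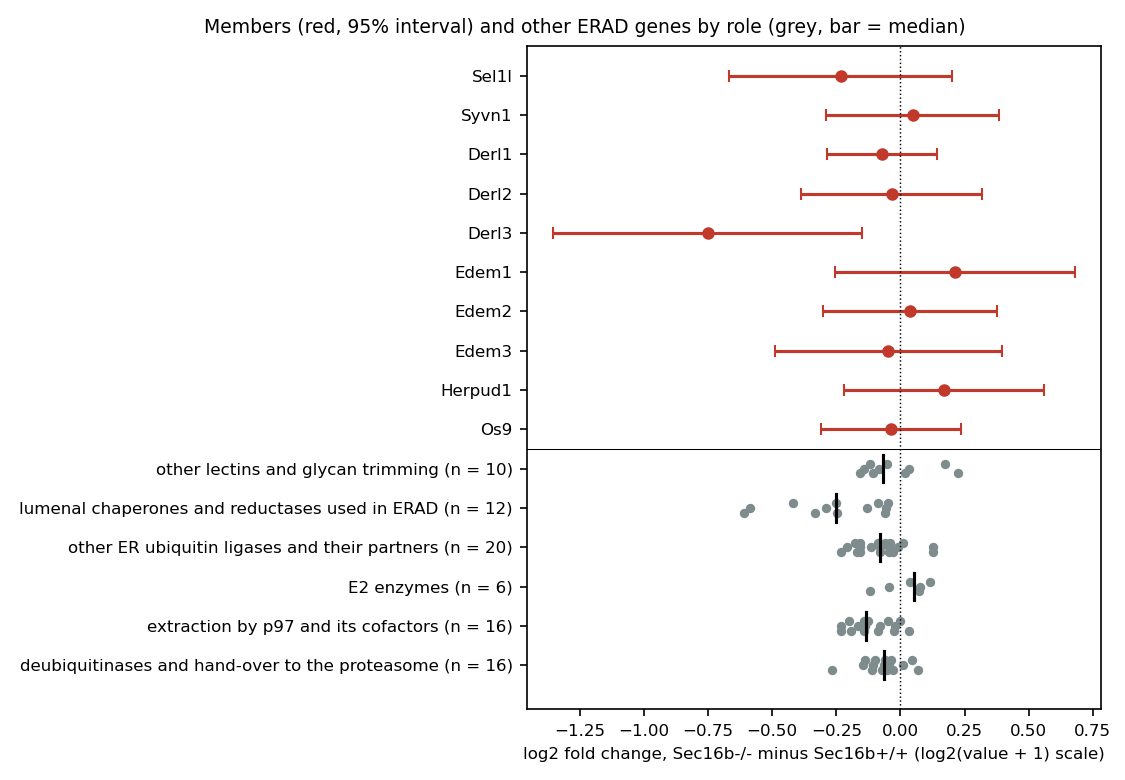
Log2 fold change of knockout minus wild type on the log2(value + 1) scale, for the 10 members (red, limma's 95% interval) and, below the line, for 80 other ERAD genes by role (grey points, bar at the median). The Derl3 interval, −1.35 to −0.15, does not reach 0 before adjustment over all genes, and the lumenal chaperones have the lowest median, −0.25.

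Sensors and transcription factors of the UPR, which control many of these genes, overlapped between the genotypes in 9 of 9 cases, as did 14586 of the 16042 genes tested. Xbp1 averaged 12696 ± 1026 normalized counts in knockout and 12511 ± 671 in wild type libraries (SD, n = 3 each), a log2 fold change of 0.02 (SE 0.11). Atf6 had −0.05 (SE 0.18), Atf6b −0.17 (SE 0.10) and Ern1, the Ire1 sensor, 0.03 (SE 0.16). Eif2ak3, the Perk sensor, had 6033, 4939.5 and 2956 in the knockout libraries, against 3664, 3698 and 4319 in the wild type libraries, a log2 fold change of 0.20 (SE 0.25). It was 0.03 with the acinar level as a covariate and −0.02 without knockout replicate 1. Atf4 had −0.03 (SE 0.14) and Ddit3, which encodes Chop, 0.12 (SE 0.14). The proteases that activate Atf6, Mbtps1 and Mbtps2, had −0.13 (SE 0.11) and −0.04 (SE 0.14). Transcript levels do not show splicing of Xbp1 or cleavage of Atf6.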

How the data were processed

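Islet RNA was sequenced in 6 libraries, and the table's columns were tied to samples by their labels. HISAT2 is the aligner named, per the submitters' processing notes. The aligner version, the counter, the build and the strandedness are not given in the sources used, so genes that overlap on either strand may hold each other's reads. The deposited values are a signal, namely read counts scaled by the authors with a factor for each library: 100% of them were whole multiples of the library's step, to within 0.01 reads. No value was 0.

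The filter required a value of 10 or more in 3 or more libraries. Then log2(value + 1) was fitted with limma 3.58.1 (R 4.3.3, mean-variance trend), knockout minus wild type, two-sided, with Benjamini-Hochberg adjustment over 16042 genes and a threshold of 0.05. Fold changes on this scale understate those of low genes. EdgeR 4.0.16 and DESeq2 1.42.0 ran on recovered reads. DESeq2 left 7882 genes without an adjusted p. The limma fit was tested on simulated data, in which the changed genes differed by larger folds than any member here. Replicates differed far beyond sampling noise (chi-square per degree of freedom at least 49.9).

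Members and lists were chosen with earlier results of these data known. The genes named were the 10 members, Sec16b, the 9 UPR regulators, the 5 other ERAD genes of smallest p per direction with 1 more for any role not yet represented, and the nearest profiles (5 for the members' mean, 3 for the member of smallest p), of which 1 gene is not reported here. Promoter elements were searched after the values were seen. Alternatives covered pseudocount, filter, scaling, variance trend, count tool, blocking on replicate number, an acinar covariate and leaving out each library.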

Additional observations from a re-analysis of the deposited data

How the results depend on the processing

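No member passed the threshold under any of the 17 alternatives, and the count over the 80 other ERAD genes and over all genes was 0 in 16 of them. The exception was DESeq2, with 2 other ERAD genes (Calr at −0.61 and Hsp90b1 at −0.58) and 12 genes in all. Derl3 lay at −0.89 to −0.48 when a library was dropped and −0.75 to −0.72 otherwise, and Sec16b lay at −1.61 to −1.002 when a library was dropped. The median over the members then lay at −0.09 to 0.10. Members near 0 changed sign with a library left out: Syvn1 (−0.036 to 0.20), Derl2 (−0.18 to 0.10), Edem2 (−0.044 to 0.19), Edem3 (−0.25 to 0.11) and Os9 (−0.11 to 0.043). So did Ern1 (−0.063 to 0.19), Xbp1 (−0.044 to 0.069), Atf6 (−0.22 to 0.12), Eif2ak3 (−0.023 to 0.49), Atf4 (−0.14 to 0.092), Ddit3 (−0.033 to 0.21), Mbtps2 (−0.16 to 0.049), Trabd (−0.20 to 0.042), Arfgap3 (−0.20 to 0.041) and Spop (−0.12 to 0.028). The cause was not tested. Same-numbered libraries deviated together in replicates 1 and 3 (r across genes 0.43 and 0.37) but not in replicate 2 (0.0037), so the numbers were not taken as pairs. With the replicate block 0 genes passed and no call changed. Derl3 kept a log2 fold change of −0.75, which a block balanced over the groups cannot alter. Its SE was 0.17 with the block and 0.25 without it. At an unadjusted p under 0.05 limma had 864 genes with the block and 494 without it. With 3 libraries a group, the median SE over the members was 0.16, and differences of that size were not detectable here. Far larger ones were not called either: Derl3 at −0.75 and Sec16b at −1.22 each had a limma adjusted p of 0.993.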

Other observations

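The ERSE motif was present in the windows of 20 tested genes in all, counting Derl3, among the 11712 tested genes that had a window. Of these, 15 were lower and 5 higher in knockout libraries, with a median log2 fold change of −0.25, where the median over all genes tested was −0.0030. Knockout lay below wild type without overlap in 7 of the 20 (35%), where 5.22% of all genes did. It lay above wild type in 0 of the 20, where 618 of the 16042 genes tested did. Among the 7303 genes with a mean of at least 500, a level that all 7 reached, 574 lay below and 155 above. The median of the 7303 was −0.04. Not all of the 20 reached that level (Alg12 averaged 448 in knockout and 472 in wild type libraries). The 7 of 20 and the 574 of 7303 thus do not cover genes of like level. Genes with a window were not counted separately. The 7 were Derl3 (−0.75), Creld2 (−0.73, an ER stress-inducible protein), Calr (−0.61), Hsp90b1 (−0.59), Pdia6 (−0.40, a disulfide isomerase), Dnajc3 (−0.32, a cochaperone of Hspa5) and Hnrnpa3 (−0.09, an RNA-binding protein). Creld2 averaged 3938 ± 753 normalized counts in knockout and 6457 ± 385 in wild type libraries (SD, n = 3 each). By limma none of the 7 was called (adjusted p = 0.993 for each). Other ERSE genes of the ER overlapped between the genotypes: Hspa5 (−0.29, SE 0.33), Canx (−0.13, SE 0.12), Alg12 (−0.07, SE 0.12), Syvn1 (0.05, SE 0.14) and Ero1b (0.00069, SE 0.22). The sites read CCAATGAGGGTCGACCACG in the Calr window and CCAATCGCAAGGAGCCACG and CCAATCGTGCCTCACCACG in the Hsp90b1 window. This grouping was made after the values were seen, some of its genes were known to be low from earlier results, and it was not tested.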
